A study of Mus musculus with 11 samples.

Results

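The collagen genes of the mouse were followed in liver RNA of db/db mice given phosphate-buffered saline (PBS) or an antibody against the glucagon receptor (GCGR). A collagen gene is here a gene whose symbol is Col, a number, the letter a and a number, such as Col1a1. The members were the gene probes of the array, control spots left out, whose RefSeq accession is a transcript of such a gene. This gave 61 probes of 42 genes, out of 26581 named probes of 20144 genes. Col6a3 and Col12a1 were among the 44 collagen genes of the RefSeq table, but no probe accession matched them, and they are not analysed here. Of the 61 probes, 34 were marked well above background in the liver channel on all 11 arrays, 8 on some arrays and 19 on none. A gene was tested when at least 1 of its probes was well above background on 5 or more of the 11 arrays, and its brightest such probe stood for it. This left 30 collagen genes, 26 of them on a probe well above background on all arrays. The other 4 were Col2a1, Col8a1, Col13a1 and Col25a1. The 12 genes with no such probe were Col4a3, Col6a4, Col6a5, Col6a6, Col9a3, Col10a1, Col11a1, Col19a1, Col22a1, Col24a1, Col26a1 and Col28a1, and 11 of them were above background on no array, the exception being Col6a4.

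All samples were liver of db/db mice, which lack a functional leptin receptor and become obese and diabetic, and no lean or wild-type group was among them. The 5 control samples received PBS and are numbered 1, 3, 4, 5 and 6. The 6 treated samples received 5 mg/kg of 3c7.v44 mAb, a monoclonal antibody against the receptor for glucagon, and are numbered 1 to 6. The labels do not say how often or for how long the antibody was given, nor the age or sex of the mice. They do not state that samples came from separate animals, so the p-values speak only to the spread among these arrays, which may be technical. On each array the liver RNA was labelled with Cy5 and a pooled mouse reference RNA with Cy3, with no dye swap. The comparison asks what the antibody does to collagen transcripts in this liver.

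Collagens are proteins of the extracellular matrix built from 3 chains wound into a triple helix. The fibrillar types form the cross-striated fibrils that give tissue its tensile strength, type IV forms the sheet-like network of basement membranes, and fibril-associated types decorate the fibrils. In liver most fibrillar collagen is made by hepatic stellate cells, portal fibroblasts and the myofibroblasts that arise from them, and its build-up is what pathologists call fibrosis. Chains are hydroxylated and folded in the endoplasmic reticulum with the help of dedicated chaperones. They are then secreted, trimmed of their propeptides and cross-linked outside the cell.

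Promoter sequence is shown for 3 of the fibrillar collagen genes that rose under the antibody and had a RefSeq (GRCm38.p6) window. Another gene of this kind, Col27a1, is not shown. The 3 shown are the second chain of type I, the chain of type III and the first chain of type V. Each is the 250 bases before the annotated start, on the plus strand, written 5′ to 3′. Capitals mark 3 short promoter words searched on both strands, namely CCAAT (on the other strand read as ATTGG), the word GGGCGG (on the other strand CCGCCC) and the word TATAAA (on the other strand TTTATA). No 2 marked words overlap.
Col1a2, chr6:4505368-4505617: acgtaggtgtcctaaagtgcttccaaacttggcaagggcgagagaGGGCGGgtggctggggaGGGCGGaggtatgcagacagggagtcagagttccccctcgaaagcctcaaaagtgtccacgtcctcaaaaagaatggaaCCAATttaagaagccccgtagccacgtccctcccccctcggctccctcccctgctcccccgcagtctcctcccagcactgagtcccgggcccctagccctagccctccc
Col3a1, chr1:45311288-45311537: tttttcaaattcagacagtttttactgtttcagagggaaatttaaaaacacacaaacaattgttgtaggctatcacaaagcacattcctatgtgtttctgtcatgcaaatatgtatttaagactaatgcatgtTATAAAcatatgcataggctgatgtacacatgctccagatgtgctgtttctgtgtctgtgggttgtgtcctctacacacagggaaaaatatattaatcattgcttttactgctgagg
Col5a1, chr2:27886175-27886424: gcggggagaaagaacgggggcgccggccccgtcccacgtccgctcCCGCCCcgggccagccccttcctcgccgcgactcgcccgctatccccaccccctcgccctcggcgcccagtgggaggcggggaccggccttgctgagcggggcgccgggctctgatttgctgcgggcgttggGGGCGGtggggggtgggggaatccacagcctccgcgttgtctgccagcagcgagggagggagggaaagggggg
The Col1a2 stretch held CCAAT at 109 bases before the start and GGGCGG at 188 and 205. The Col3a1 stretch held TATAAA at 117 bases before the start and neither of the other words. The Col5a1 stretch held GGGCGG at 73 bases before the start and CCGCCC at 205, and neither CCAAT nor the word TATAAA. Windows were found for 34 of the 42 collagen genes, and for 6 of the 8 that rose; there was none for Col1a1 and Col14a1. Among these 6, CCAAT was present in 3, GGGCGG in 4 and TATAAA in 1. Over all 32851 windows of this length the shares were 33.85%, 32.74% and 12.37%. The stretches of Col4a1 (chr8:11312827-11313076, minus strand) and Col4a2 (chr8:11312555-11312804, plus strand), neighbours that are read in opposite directions, did not overlap, and 22 bases lay between them. The annotated starts were 11312826 for Col4a1 and 11312805 for Col4a2, so those 22 bases belong to both transcripts. The stretch before each start thus lies past the start of the other gene. A match of letters is a description of the window, not a site or a cause.

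Values are the deposited log2 ratios of liver over reference signal, so a value of -6 means a liver signal far below the reference. Such a ratio depends on the reference RNA and on the probe, and it does not rank genes by abundance. A difference is the mean of the antibody group minus that of the PBS group on the log2 scale, given ± its standard error. It was tested with limma over all 15974 genes, two-sided, and a gene passed at a Benjamini-Hochberg adjusted p under 0.05.

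Of the 30 collagen genes, 8 were higher under the antibody, 1 was lower and 21 did not pass. Over all 15974 genes 8.77% were called higher and 5.67% lower (14.4% in either direction). Type I collagen (Col1a1 and Col1a2), type III (Col3a1), type V (Col5a1), type XXVII (Col27a1), both main chains of type IV (Col4a1 and Col4a2) and the fibril-associated type XIV (Col14a1) rose, and Col7a1 fell. The differences of 22 of the 30 genes were above 0, against 53.5% of all genes. Their median was 0.10, against 0.01 over all genes tested. By class, 5 of 9 tested fibrillar genes, 2 of 5 type IV genes and 1 of 5 fibril-associated genes rose. None of the 2 type VI, 2 multiplexin, 2 short-chain and 4 transmembrane genes passed in either direction. The median difference was 0.30 over the fibrillar genes, 0.17 over type VI and 0.05 over type IV. It was 0.01 over the fibril-associated genes. The count of 8 fell to 4 without PBS replicate 1, and to 5 without PBS replicate 3, 4 or 6 or without anti-GCGR replicate 3, 4 or 6. It was 4 with the scanner software's own ratio, and 5 with median centring in place of loess or with arrays scaled to one spread. With the slide as a block it was 10. Over all genes 1401 were called higher in the main fit. That number was 760, 894, 963 and 1006 without PBS replicate 1, 3, 4 and 6. It was 955, 849 and 1082 without anti-GCGR replicate 3, 4 and 6. The software ratio gave 971, median centring 575, scaled arrays 922 and the slide block 1702. These are whole-liver samples, so a change in the number of cells of a type and a change in RNA per cell cannot be told apart.

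**Figure D1:**
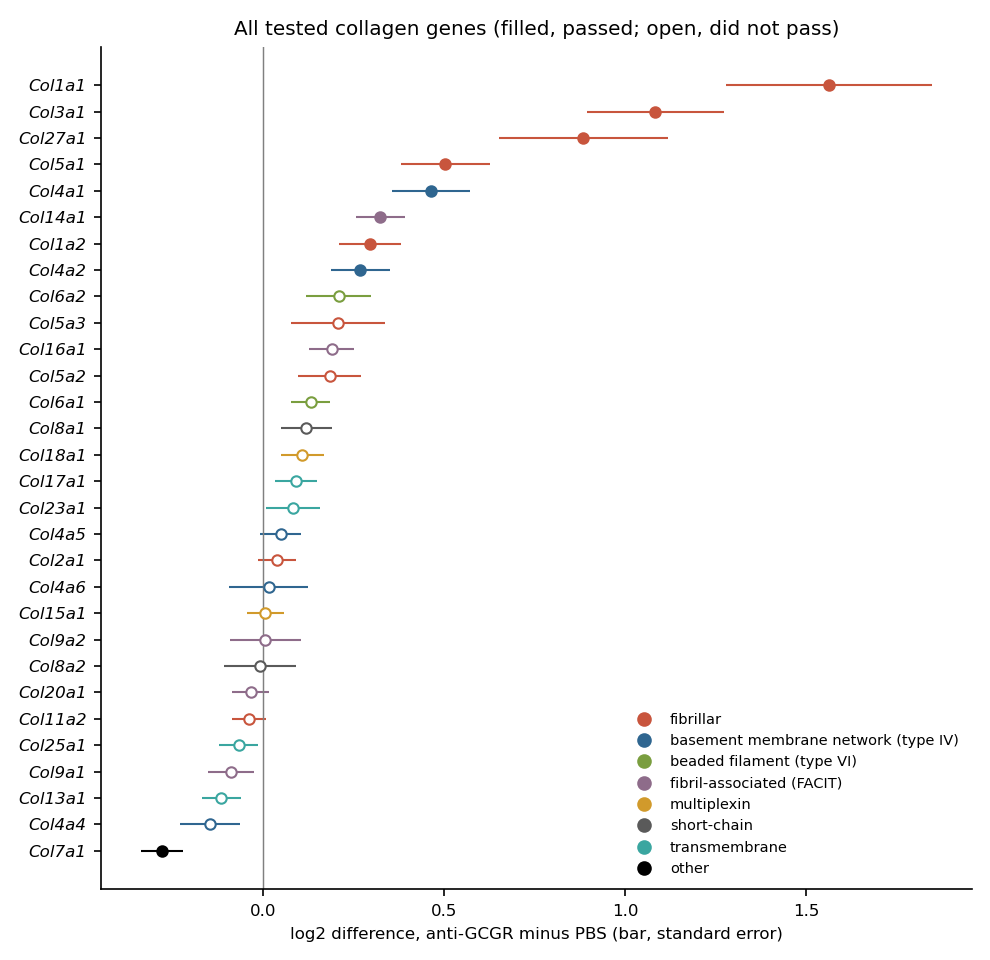
Log2 difference (anti-GCGR minus PBS, horizontal axis) of the 30 tested collagen genes, coloured by class, with bars of 1 standard error; filled points passed the test and open points did not. Fibrillar genes hold the first 4 places from the top, led by Col1a1 at 1.56, and Col7a1 at -0.28 is the lowest.

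The largest rise among collagens was that of Col1a1, which encodes the major chain of type I collagen, the main protein of scar and bone. Its log2 ratio was -6.71, -6.09, -6.35, -6.49 and -6.39 on PBS arrays 1, 3, 4, 5 and 6, and the 6 antibody arrays ran from -5.58 over a median of -4.86 to -4.01. Every antibody array lay above every PBS array, and the antibody arrays split into replicates 3, 4 and 6 at the top and 1, 2 and 5 closer to the controls. The difference was 1.56 ± 0.28, a 2.96-fold rise (adjusted p = 0.00711). In the scanner files the liver spot of Col1a1 read 546 to 891 intensity units under PBS and 1188 to 3563 under the antibody, over a local background of 24 to 31.5. The call held without any 1 array, with differences between 1.40 and 1.71, and the difference was 1.65, 1.05 and 2.03 within slides 1, 2 and 3. Slide 2 holds PBS replicate 5 as its only control array, which limits every value within that slide.

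Col3a1, the single chain of type III collagen that is laid down beside type I in early scar tissue, moved the same way. PBS arrays 1, 3, 4, 5 and 6 gave -4.07, -3.53, -3.80, -3.86 and -3.92, and the antibody arrays ran from -3.28 (median -2.77) to -2.17. The groups did not overlap, with antibody replicates 6, 4 and 3 again the highest. The difference was 1.08 ± 0.19, a 2.12-fold rise (adjusted p = 0.00655), and it held without any 1 array at 0.97 to 1.19. Within slides 1, 2 and 3 it was 1.11, 0.78 and 1.38.

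Col1a2 encodes the other chain of type I collagen, which joins a pair of Col1a1 chains in each molecule. Its PBS values were -4.01, -3.87, -3.97, -3.87 and -3.88, and its antibody values ran from -3.95 (median -3.58) to -3.39. The groups overlapped in 1 array, antibody replicate 1, which lay within the PBS range. The difference of 0.30 ± 0.08 is a 1.23-fold rise (adjusted p = 0.0362). Omitting any 1 of the PBS arrays, or antibody array 3, 4 or 6, ended this call (adjusted p between 0.0508 and 0.0899, differences between 0.25 and 0.31). It was also lost with the software ratio (0.32, adjusted p = 0.0652), with median centring (0.22, 0.127) and with scaled arrays (0.26, 0.267).

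Set side by side after the values were seen, and so described without a p-value, the 2 chains of type I collagen had differences of 1.56 and 0.30. Per array, the log2 ratio of Col1a1 minus that of Col1a2 ran from -2.69 to -2.21 under PBS and from -1.94 to -0.61 under the antibody, with no overlap. The group means of this within-array contrast were 1.27 apart. In the Cy5 channel alone the contrast was 1.12. The liver spot of Col1a2 read 3926 to 4879 intensity units under PBS and 4264 to 6666 under the antibody, and no spot on any array was saturated.

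**Figure D2:**
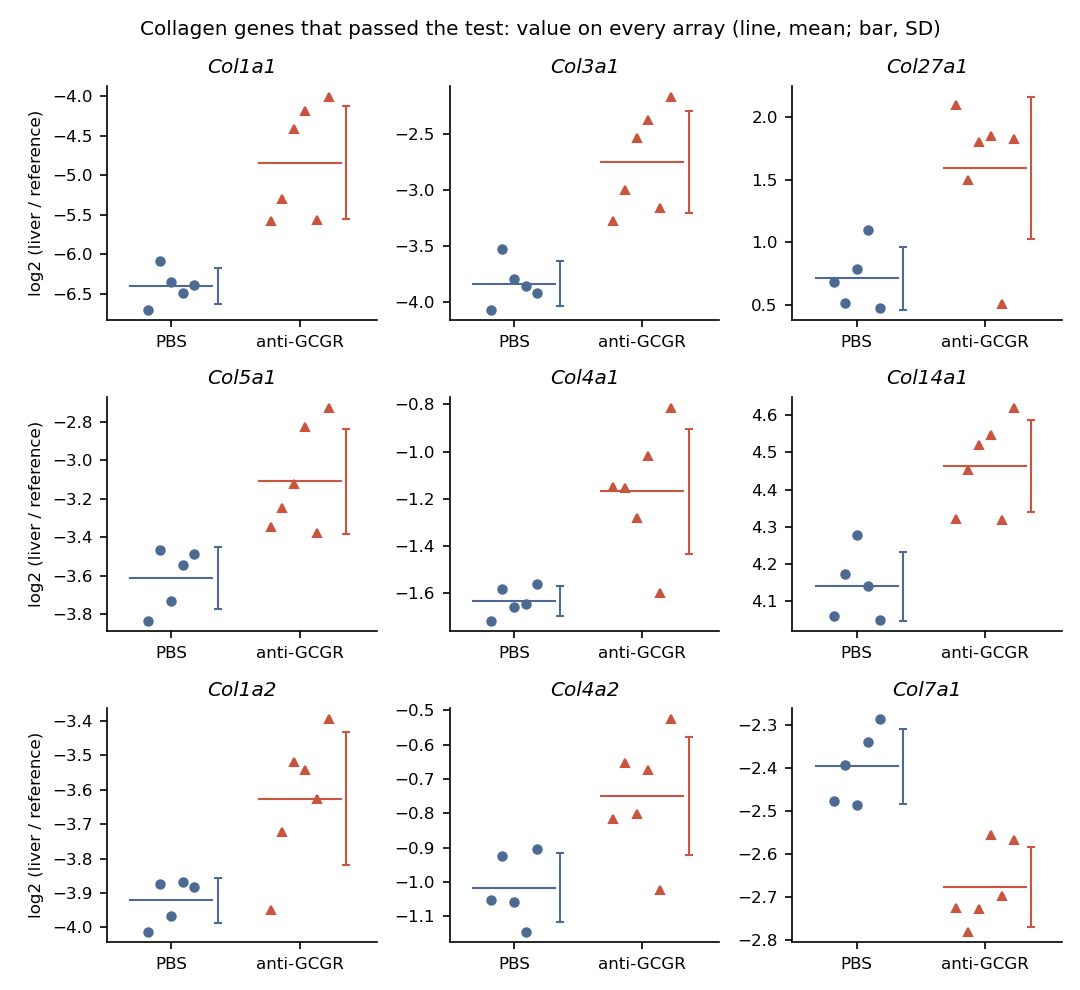
Log2 ratio of liver over reference (vertical axes, a separate scale for each gene) on every array for the 9 collagen genes that passed; circles are the 5 PBS arrays, triangles the 6 anti-GCGR arrays, lines the group means and bars the SD. The groups are fully apart for Col1a1, Col3a1, Col5a1, Col14a1 and Col7a1, and 1 or more antibody arrays reach the PBS range for the other 4.

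Among the less abundant fibrillar collagens, Col5a1 encodes a chain of type V, which sits inside type I fibrils and limits their width. PBS arrays gave -3.83, -3.47, -3.73, -3.54 and -3.49, and antibody arrays ran from -3.38 (median -3.19) to -2.73. The groups did not overlap, but the lowest antibody array stood only just above the highest PBS array. The difference was 0.50 ± 0.12, a 1.42-fold rise (adjusted p = 0.0195). The call ended when PBS replicate 1 was omitted (0.45, adjusted p = 0.0554) and with the Cy5 channel alone (0.45, adjusted p = 0.0645).

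Col5a2, the partner chain of Col5a1 in type V, gave -2.60, -2.44, -2.52, -2.71 and -2.49 under PBS and ran from -2.68 (median -2.32) to -2.19 under the antibody. Antibody replicate 2 was among the lowest values of both groups, and the groups overlapped. The Col5a2 spot was dim, at 43 to 53 intensity units under PBS and 47 to 68 under the antibody, over a background of 23.5 to 30. The difference of 0.18 ± 0.09 did not pass (adjusted p = 0.181). It passed with the slide as a block (0.22, adjusted p = 0.0270). With the replicate number as a block it was 0.25 (adjusted p = 0.0488), and the software ratio gave 0.63, which did not pass (adjusted p = 0.0941). The third chain of type V, Col5a3, had means of -0.37 ± 0.17 (SD, n = 5) and -0.17 ± 0.30 (SD, n = 6), a difference of 0.21 that did not pass (adjusted p = 0.319).

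Col27a1, a fibrillar collagen best known from cartilage, had PBS values of 0.68, 0.51, 0.79, 1.102 and 0.48, and antibody values from 0.50 (median 1.81) to 2.10. Of the antibody arrays, 5 lay above all PBS arrays and replicate 5 lay at the bottom of the PBS range. The difference was 0.88 ± 0.23, a 1.85-fold rise (adjusted p = 0.0264), from a spot that read 104 to 213 intensity units under PBS and 115 to 375 under the antibody. It ended on omission of array 1, 3, 4 or 6 of either group (adjusted p between 0.0509 and 0.0641), with the software ratio (0.94, adjusted p = 0.0705) and with the replicate number as a block (0.90, adjusted p = 0.0855). Within slides 1 and 3 the difference was 1.24 and 1.32, and within slide 2 it was -0.10. Slide 2 holds anti-GCGR replicates 2 and 5, and its only control is PBS replicate 5, the highest PBS array for this gene. Col2a1, the main cartilage collagen, and Col11a2, which accompanies it, are fibrillar too. Their means were -0.94 and -0.90 for Col2a1 and -0.55 and -0.59 for Col11a2 (PBS, then antibody), and neither passed. The Col2a1 probe was well above background on 5 arrays only.

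Fibril-associated collagens sit on the surface of fibrils. Col14a1, which encodes type XIV, a regulator of fibril growth, gave 4.06, 4.17, 4.28, 4.14 and 4.05 under PBS and ran from 4.32 (median 4.49) to 4.62 under the antibody. All antibody arrays were above all PBS arrays, by a small margin. The difference was 0.32 ± 0.07, a 1.25-fold rise (adjusted p = 0.0114), and a dimmer kept probe gave 0.40, which did not pass (adjusted p = 0.0533). The reference channel of this probe also moved, by 0.21 in log2 intensity, while the liver channel moved by 0.54. With the Cy5 channel alone Col14a1 kept its call (0.55, adjusted p = 0.0209). The part of the reference in the ratio was not tested. The call was lost with the software ratio (0.10, adjusted p = 0.365), with median centring (0.22, 0.0928) and with scaled arrays (0.36, 0.121).

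The other 4 tested genes of this class did not pass. Col16a1, a minor fibril-associated type, came nearest, with means of -2.85 and -2.66 (difference 0.19 ± 0.06, adjusted p = 0.0584). Its 2 other kept probes gave 0.10 and -0.11, so the probes disagreed in sign. Col16a1 passed with the slide as a block (0.19, adjusted p = 0.0425) and without anti-GCGR replicate 1 (0.22, adjusted p = 0.0437). Col9a1 and Col9a2, chains of the cartilage type IX, differed by -0.09 and 0.01, and Col20a1 by -0.03. With the software ratio Col20a1 was called lower (-0.15, adjusted p = 0.0422).

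Basement membranes hold type IV collagen, whose common form joins chains from the neighbouring genes Col4a1 and Col4a2. For Col4a1 the PBS values were -1.72, -1.58, -1.66, -1.64 and -1.56, and the antibody values ran from -1.60 (median -1.15) to -0.81. Antibody replicate 5 lay within the PBS range and the other 5 antibody arrays above it. The difference was 0.46 ± 0.11, a 1.38-fold rise (adjusted p = 0.0169), and the call held without any 1 array at 0.39 to 0.55. For Col4a2 the PBS values were -1.05, -0.93, -1.06, -1.15 and -0.90, and the antibody values ran from -1.02 (median -0.74) to -0.52. Again replicate 5 alone lay within the PBS range. The difference of 0.27 ± 0.08 (1.20-fold, adjusted p = 0.0465) lay close to the threshold, and 10 of the 11 omissions of 1 array ended the call (adjusted p between 0.0542 and 0.0996), the exception being anti-GCGR replicate 5. It was also lost with the software ratio (0.27), median centring (0.16), scaled arrays (0.26), no filter on dim probes and the replicate block (0.25). The reference channel of the Col4a2 probe moved by 0.14. With the Cy5 channel alone Col4a2 kept its call (0.40, adjusted p = 0.00775). The part of the reference in the ratio was not tested.

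Per array, Col4a1 minus Col4a2 ran from -0.66 to -0.50 under PBS and from -0.57 to -0.29 under the antibody, with overlap. The group means of this contrast, also chosen after the values were seen and given without a p-value, were 0.20 apart, and 0.05 apart in the Cy5 channel alone. The other type IV chains, which form specialised membranes such as that of the kidney glomerulus, did not pass. Their differences were -0.15 for Col4a4, 0.05 for Col4a5 and 0.01 for Col4a6. For Col4a4 another kept probe gave 0.04, which did not pass, so its probes disagreed in sign. A second kept probe of Col4a6 differed by -0.03, at a log2 ratio near -2.3 against 1.1 for the brighter probe.

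Col6a1 and Col6a2 encode 2 of the chains of type VI, which forms beaded filaments between cells and matrix. For Col6a1 the PBS values were -2.12, -2.24, -2.31, -2.28 and -2.13, and the antibody values ran from -2.17 (median -2.09) to -1.98. Antibody replicates 2, 3, 4 and 6 lay above all PBS arrays. The difference was 0.13 ± 0.05 (adjusted p = 0.119). For Col6a2 they were -2.13, -2.01, -2.23, -1.70 and -1.88 under PBS, and -1.94 (median -1.77) to -1.62 under the antibody. PBS replicate 5 was higher than 5 of the 6 antibody arrays. The difference was 0.21 ± 0.09 (adjusted p = 0.135), and without PBS replicate 5 it was 0.28 and passed.

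Col15a1 and Col18a1 are multiplexins, collagens of vessel and epithelial basement membranes; in liver Col18a1 is made by hepatocytes, and its C-terminal piece is endostatin. The Col18a1 values were 3.73, 3.60, 3.70, 3.66 and 3.67 under PBS and 3.57 (median 3.81) to 3.90 under the antibody. All antibody arrays except replicate 5, the lowest of all 11, were above the PBS arrays. The difference of 0.11 ± 0.06 did not pass (adjusted p = 0.238), but it did without anti-GCGR replicate 5 (0.15, adjusted p = 0.0377). A second, dimmer probe of Col18a1 gave -0.16, which did not pass (adjusted p = 0.0587), so the probes disagreed in sign. Which transcripts each probe detects was not tested. Col15a1 gave 0.08, 0.19, 0.06, 0.10 and 0.13 under PBS and 0.02 (median 0.12) to 0.22 under the antibody, groups that overlapped in full. Its difference was 0.01 ± 0.05 (adjusted p = 0.955). The Col15a1 spot was dim, at 44 to 58 intensity units under PBS and 42 to 61 under the antibody, over a background of 24 to 28. Its other probes were well above background on no array.

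Col7a1 was the 1 collagen that fell. It encodes type VII, the anchoring fibril collagen that ties epithelial basement membrane to the tissue beneath. PBS arrays gave -2.48, -2.39, -2.49, -2.34 and -2.29, and antibody arrays ran from -2.78 (median -2.71) to -2.56. Every antibody array was below every PBS array. The difference was -0.28 ± 0.06 (adjusted p = 0.0118), and it held without any 1 array at -0.30 to -0.25. Within slides 1, 2 and 3 it was -0.16, -0.40 and -0.31.

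The remaining tested collagens showed small differences that did not pass. Among the transmembrane collagens, which span the cell membrane, they were 0.09 for Col17a1, 0.08 for Col23a1, -0.07 for Col25a1 and -0.12 for Col13a1. The short-chain collagens, which form hexagonal networks, had 0.12 for Col8a1 and -0.01 for Col8a2. Of all 30 genes, 4 did not overlap between groups with the antibody arrays higher and 1 with them lower. Over all genes these shares were 3.92% and 2.72%, or 6.64% in either direction.

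The antibody arrays differed among themselves over the 8 genes that rose. Replicate 6 was the highest of the 6 for 7 of the 8 genes and replicate 1 for the other, Col27a1. Replicate 5 was the lowest for 5 genes and replicate 1 for 3, and replicate 5 lay within the PBS range for Col27a1, Col4a1 and Col4a2. The median distance above the PBS mean over the 8 genes ran from 0.21 for replicate 5 to 0.85 for replicate 6. Over all genes, 1401 were called higher with all arrays and 2271 without anti-GCGR replicate 5. Arrays of both groups were spread over the same 3 slides, but all PBS arrays sat at slide positions 1 and 2 and all antibody arrays at positions 3 and 4, so that position and group cannot be told apart.

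**Figure D3:**
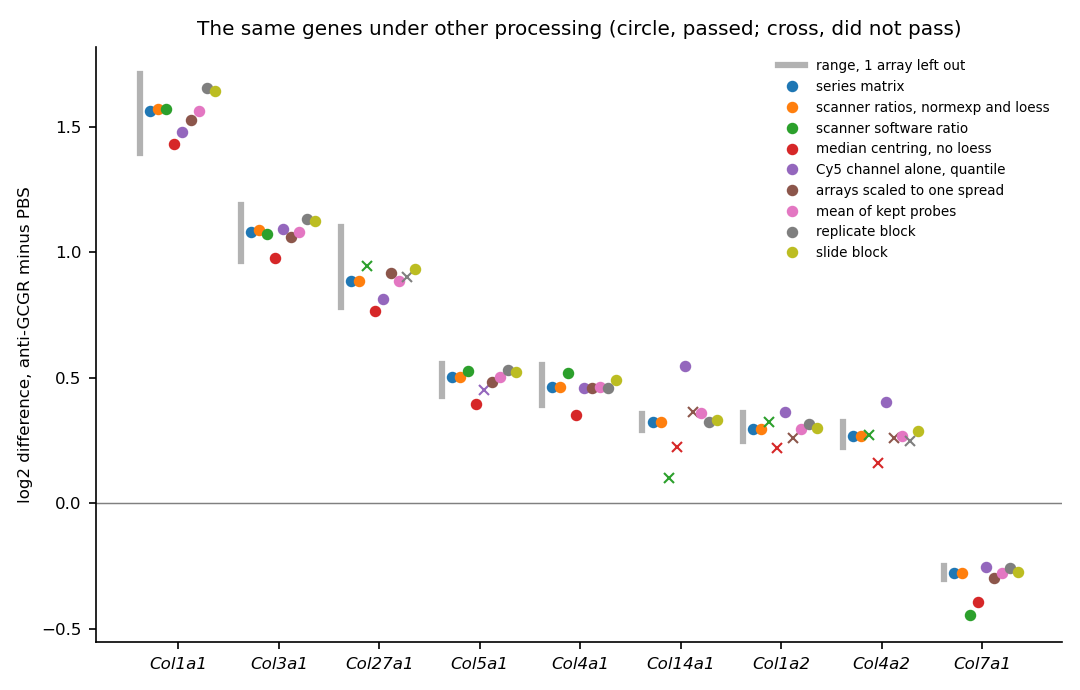
Log2 difference (anti-GCGR minus PBS, vertical axis) of the 9 collagen genes under each way of processing; circles passed the test, crosses did not, and grey bars span the values with 1 array left out. Col1a1, Col3a1, Col4a1 and Col7a1 pass under every setting drawn as a point, while Col14a1, Col1a2 and Col4a2 lose the call under 3 or more of them.

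Genes that build, bind, degrade or regulate collagen were grouped into 6 lists of 86 genes, of which 85 were on the array and 79 were tested. Among the 79 genes, 13 were higher under the antibody, 1 was lower and 65 did not pass, against 8.77% higher and 5.67% lower over all genes. The median difference was 0.13, and 60 of the 79 differences were above 0. The count of 13 was 5 without PBS replicate 1, 6 without PBS replicate 4 or anti-GCGR replicate 4 and 7 without PBS replicate 5 or anti-GCGR replicate 3. It was 8 without anti-GCGR replicate 6 and 27 without anti-GCGR replicate 5. It was 4 with median centring, 8 with scaled arrays and 20 with the slide as a block. The number called higher over all 15974 genes moved as well, from 1401 in the main fit. It was 760 without PBS replicate 1, 963 without PBS replicate 4 and 1165 without PBS replicate 5. Without anti-GCGR replicate 3, 4, 5 or 6 it was 955, 849, 2271 and 1082. Median centring gave 575, scaled arrays 922 and the slide block 1702.

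Among 19 tested genes of chain modification and folding, 2 rose and 17 did not pass (median difference 0.06). This count, and those of the other lists below, stand against 8.77% of all genes called higher and 5.67% lower. Serpinh1 encodes HSP47, the chaperone that binds the collagen triple helix. Its PBS values were -5.00, -4.37, -4.58, -4.68 and -4.54, and its antibody values ran from -4.44 (median -4.22) to -3.80. Only antibody replicates 1 and 5 reached down to the highest PBS array, replicate 3. The difference was 0.44 ± 0.13 (adjusted p = 0.0360). Omission of PBS array 1, 4, 5 or 6, or of antibody array 3, 4 or 6, ended the call (0.35 to 0.51 over all omissions), as did the software ratio, median centring and scaled arrays (0.46, 0.34 and 0.41). Fkbp10, a prolyl isomerase and collagen chaperone, rose by 0.18 ± 0.05 (adjusted p = 0.0265), from a PBS range of -2.70 to -2.60. That call ended on omission of PBS array 1, 3, 4 or 5 or of antibody array 2, 4 or 6 (0.16 to 0.20), and under median centring (0.08), scaled arrays (0.15) and the replicate block (0.16).

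Secretion and removal of propeptides had 11 tested genes, of which 3 rose and 8 did not pass (median difference 0.16). Adamts2, the protease that cuts the N-terminal propeptide of fibrillar collagens, gave -2.06, -1.67, -1.92, -1.98 and -1.67 under PBS and -1.75 (median -1.29) to -0.77 under the antibody. Antibody replicate 5 alone lay within the PBS range. The difference was 0.55 ± 0.15 (adjusted p = 0.0319), but a second kept probe gave 0.09. It did not pass when PBS array 1, 4 or 5 or antibody array 3 or 4 was omitted (0.44 to 0.64 over all omissions), nor with the software ratio (0.55) or median centring (0.45). Pcolce, which enhances the cutting of the C-terminal propeptide, rose by 0.26 ± 0.07 (adjusted p = 0.0235). Omitting PBS array 1 or 4 ended its call (0.23 to 0.29 over all omissions), and so it ended with median centring (0.17) or scaled arrays (0.23). Sec23a, a coat protein of the vesicles that carry procollagen, rose by 0.24 ± 0.07 (adjusted p = 0.0448) and is named after its values were seen. Its call was kept in 1 of the 11 omissions, that of anti-GCGR replicate 5 (0.19 to 0.28 over all omissions). It also ended with the software ratio (0.14), median centring (0.11), the Cy5 channel alone (0.16), scaled arrays (0.25), no filter on dim probes and the replicate block (0.23).

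In cross-linking and fibril assembly 2 of 14 tested genes rose and 12 did not pass (median difference 0.14). Sparc, a matrix protein that binds collagen, gave -2.44, -2.34, -2.36, -2.42 and -2.40 under PBS and -2.28 (median -2.05) to -1.95 under the antibody, with no overlap. The difference was 0.30 ± 0.06 (adjusted p = 0.0113), and a second probe gave 0.38. It did not pass with the software ratio, median centring or scaled arrays (0.28, 0.26 and 0.28). Loxl2, a lysyl oxidase-like enzyme that cross-links collagen, differed by 0.49 ± 0.14 (adjusted p = 0.0360). Its 2 other kept probes gave 0.34 and 0.04, and neither passed. The Loxl2 call ended on omission of PBS array 1, 4, 5 or 6 or antibody array 1, 3, 4 or 6 (0.40 to 0.58 over all omissions), with median centring (0.38), the mean of kept probes (0.29) and the replicate block (0.52).

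Of 9 tested collagen receptors and binding proteins 2 rose and 7 did not pass (median difference 0.13). Itga11, an integrin chain of fibroblasts and stellate cells that binds fibrillar collagen, gave -1.44, -0.94, -1.38, -1.18 and -1.29 under PBS and -0.997 (median -0.64) to -0.40 under the antibody. PBS replicate 3 stood above antibody replicates 5 and 2 and below the other 4. The difference was 0.57 ± 0.12 (adjusted p = 0.0135), and it held without any 1 array at 0.51 to 0.64. Itga1, the integrin chain that prefers type IV collagen, differed by 0.27 ± 0.08 (adjusted p = 0.0403), but its second kept probe gave -0.02 and reversed the sign. Its call was lost in 9 of the 11 omissions, all except those of PBS replicate 4 and anti-GCGR replicate 5 (0.23 to 0.34). It also ended with the software ratio (0.38), median centring (0.21), the Cy5 channel alone (0.13), scaled arrays (0.28), the mean of kept probes (0.12) and the replicate block (0.27).

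Degradation and its inhibitors had 13 tested genes, of which 2 rose, 1 fell and 10 did not pass (median difference 0.11). Ctsk, a lysosomal protease that can cut within the collagen helix, gave -0.30, -0.18, -0.44, -0.41 and -0.37 under PBS and -0.41 (median 0.46) to 0.67 under the antibody. Antibody replicate 5 stood with the PBS arrays and the other 5 above them all. The difference was 0.68 ± 0.16, a 1.61-fold rise (adjusted p = 0.0161), and it held without any 1 array at 0.62 to 0.83. Timp1, an inhibitor of matrix metalloproteinases, gave -2.35, -2.48, -2.37, -2.27 and -2.25 under PBS and -2.18 (median -1.76) to -1.63 under the antibody, with no overlap. The difference was 0.54 ± 0.09 (adjusted p = 0.00567), and it held without any 1 array at 0.50 to 0.61. Ctsl, a lysosomal protease of broad range, fell by 0.34 on the log2 scale (standard error 0.11, adjusted p = 0.0487). Only the omission of anti-GCGR replicate 5 kept that call (-0.40 to -0.27 over all omissions). Within slide 2, where PBS replicate 5 is the only control, the difference was 0.02. It was also lost with the Cy5 channel alone (-0.15), scaled arrays (-0.35), no filter on dim probes and the replicate block (-0.37).

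The transforming growth factor beta pathway, a main driver of collagen transcription, had 13 tested genes, of which 2 rose and 11 did not pass (median difference 0.16). Tgfbr2, its ligand-binding receptor, gave -1.06, -0.90, -0.95, -0.996 and -1.02 under PBS and -0.91 (median -0.28) to 0.03 under the antibody. Antibody replicate 5 lay within the PBS range and the other 5 arrays above it. The difference was 0.67 ± 0.13, a 1.59-fold rise (adjusted p = 0.00927), and it held without any 1 array at 0.60 to 0.79. A second probe gave 0.28 and did not pass. Thbs1, a secreted protein that can activate the latent ligand, differed by 0.69 ± 0.22 (adjusted p = 0.0499). Its call was kept only in the omission of anti-GCGR replicate 2 or 5 (0.55 to 0.82 over all omissions), and was lost with median centring, the Cy5 channel alone, no filter on dim probes and the mean of kept probes.

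**Figure D4:**
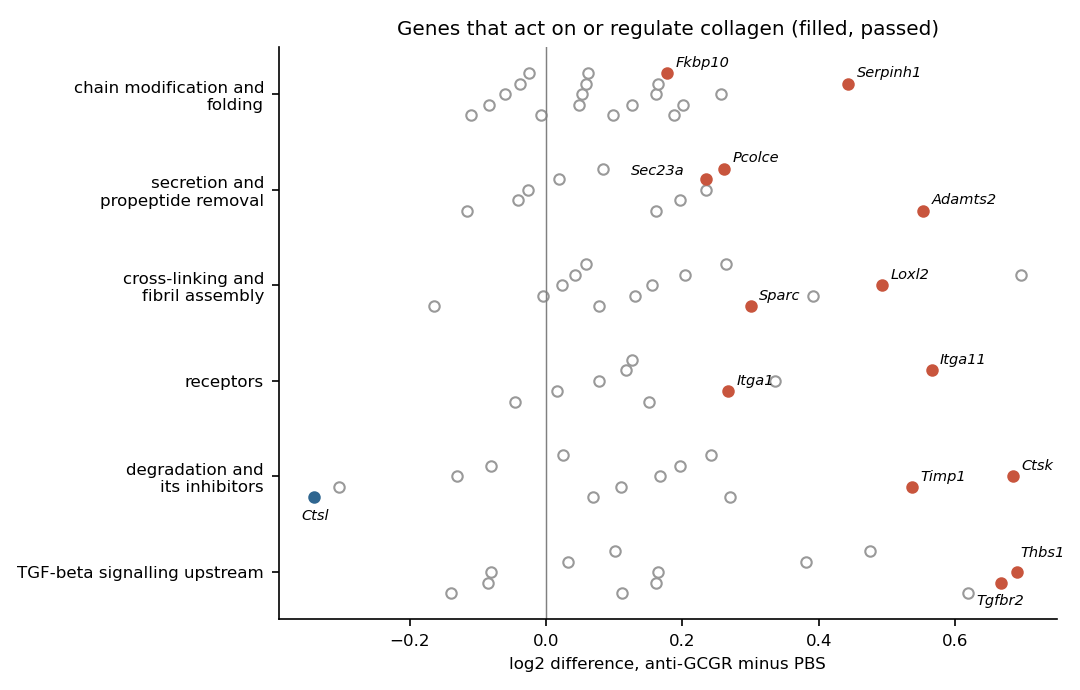
Log2 difference (anti-GCGR minus PBS, horizontal axis) of the 79 tested genes that act on or regulate collagen, 1 row of points for each of 6 lists; filled and named points passed the test, open points did not. The 13 filled points to the right of 0 are spread over all 6 lists, and Ctsl at -0.34 is the 1 on the left.

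The tissue label was checked against marker lists, whose counts stand against 8.77% of all genes called higher and 5.67% lower. All 8 hepatocyte markers were well above background on all arrays, with Alb at a log2 ratio of 5.88 ± 0.11 (SD, n = 5) under PBS and 5.74 ± 0.07 (SD, n = 6) under the antibody. Among 10 markers of hepatic stellate cells, 2 rose, Lrat by 0.61 ± 0.16 (adjusted p = 0.0235) and Pdgfrb by 0.37 ± 0.10 (adjusted p = 0.0313), and 8 did not pass. Their summed liver intensity was 18953 to 21402 under PBS and 20323 to 23845 under the antibody. By scanner reading the brightest members were Ecm1 (10508.5 to 13398.5 under PBS) and Colec11 (3951.5 to 5476), which weigh most in the sum, and neither passed. Of 10 fibroblast and myofibroblast markers 1 rose, Postn by 0.77 ± 0.19 (adjusted p = 0.0192), and Acta2, the classic myofibroblast marker, differed by 0.11 and did not pass. The sum ran from 11620 to 14877 under PBS and from 13297 to 18048 under the antibody. Here the brightest members were Tagln (5729 to 7981 under PBS) and Acta2 (2606 to 3086), and neither passed. Of 8 liver endothelial markers 2 rose, Cdh5 by 0.38 and Stab2 by 0.28, and the sums did not overlap, at 14346 to 16236 and 16600 to 20355. The members that weigh most in this sum were Clec4g (3455 to 5270 under PBS), which did not pass, and Stab2 (3398.5 to 4775), which passed. All markers of these 3 lists were well above background on every array. In the Kupffer cell and macrophage list 1 of 7 tested genes rose (Clec4f, 0.23) and sums overlapped. In the hepatocyte list Serpina1c fell by 0.26. No cholangiocyte, adipocyte or mesothelial marker passed in either direction, out of 6, 4 and 5 tested. The part of these cell types in the collagen differences was not tested.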

How the data were processed

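Column-purified, DNase-treated liver RNA was labelled as cRNA in Cy5 and the pooled reference in Cy3, per the labels' protocols. Agilent Feature Extraction was version 11 per the submitters' processing notes and 11.5.1.1 per the file headers. Its output files, as deposited, hold spot intensity values of both dyes and a log10 ratio of the dyes. The main values are the log2 ratios of the series matrix that the authors deposited; their own processing steps are not given in the sources used here. Compared with the scanner values, they were Cy5 over Cy3 and not centred by gene. Column medians lay between -0.0028 and 0.0081, and they correlated at 0.999964 or more with normexp (offset 50) and loess values computed here. Each array held 43020 gene spots, of which 66.2% to 77.1% were well above background, with a median Cy5 intensity of 85 to 110 over a background of 26 to 27, which limits dim probes. The number of arrays limits the precision.

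Probes were named through the unversioned RefSeq accession (table of GRCm38.p6). Of 39429 probes, 12848 matched no gene there. Control spots were left out and spots of 1 probe averaged. The brightest kept probe stood for a gene. Groups and replicate numbers come from the sample titles. They were compared with limma 3.58.1 in R 4.3.3 (lmFit and eBayes), which was tested on simulated data. Alternatives were other normalizations of the scanner intensities, other filters and probe rules, blocks and the omission of each array. All collagen genes past the threshold, and 13 chosen by name, are given where tested, array by array for PBS. Their antibody arrays are given as the lowest, median and highest value. Of each pathway list the 2 largest rises and falls past the threshold are named. The collagen genes, lists and rules were chosen with earlier results of these data known, so no p is adjusted over a list. Promoter windows are from RefSeq.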

Additional observations from a re-analysis of the deposited data

Results flagged for a closer look

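Over 30 genes and 60 groups of 5 or 6 arrays, 2 groups held a value set far apart from the rest, and chance marks about 1 group in 20. For Timp1, anti-GCGR replicate 5 stood at -2.18, below the nearest antibody array at -1.78, a gap of 0.725 of that group's range. For Fkbp10, PBS replicate 6 stood at -2.60, above the nearest PBS array at -2.68, a gap of 0.779 of the range. In both genes the array that stood apart lay on the side of the other group, and no array of the 2 groups overlapped. For Fkbp10 the groups all but touched, with the highest PBS array at -2.60104 and the lowest antibody array at -2.60053.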

How the results depend on the processing

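Col1a1, Col3a1, Col4a1 and Col7a1 kept their direction and their call under every alternative fit that gave a test, including the omission of each array. The collagen counts were 8 higher and 1 lower; the scanner software's ratio gave 4 and 2, median centring without loess 5 higher and scaled arrays 5 higher. The pathway counts were 13 higher and 1 lower. Higher counts were 4 with median centring, 8 with scaled arrays and 20 with the slide block; lower counts were 4 with median centring, 2 with Cy5 alone or the mean of kept probes, and 0 with scaled arrays, no filter on dim probes or the replicate block (limma). Over all genes (1401 higher, 905 lower, 60.8% of calls higher) median centring gave 575 and 2152 (21.1% higher), the software ratio 45.1% higher, scaled arrays 922 higher and the replicate block 672 and 330. The median collagen difference of 0.099 was 0.146 with the software ratio, 0.0285 with median centring, 0.0469 without the filter and 0.0582 with the mean of kept probes. Over all genes the median was 0.012 in the main fit, -0.015 with the software ratio and -0.058 with median centring. It was 0.0077 without the filter and 0.011 with the mean of kept probes. Leaving out 1 array gave 4 to 9 collagen genes higher and 1 lower each time, 5 to 27 pathway genes higher and 0 to 2 lower, 760 to 2271 and 451 to 1567 over all genes, and a collagen median of 0.078 to 0.125. Differences reversed for Col27a1 and Ctsl within slide 2 (-0.10 and 0.023), whose only control is PBS replicate 5, and for the second Itga1 probe (-0.022). The cause of these changes was not tested.

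Samples of the same number shared a slide, but their deviations correlated at 0.13, 0.03, -0.005, -0.12 and 0.14 for numbers 1, 3, 4, 5 and 6, and no PBS sample correlated best with its own number, so the numbers were not taken to pair samples. With the replicate number as a block the collagen calls of Col27a1 (0.90) and Col4a2 (0.25) were lost and that of Col5a2 (0.25) was gained. Scan time marked the same arrays as the slide and gave the same block. Dim probes limit the 12 untested collagens.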
